A study of Mus musculus with 6 samples.

Results

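Genes of the NF-kappaB pathway were examined in double negative thymocytes, early T cell precursors without the CD4 and CD8 coreceptors. The set holds 10 genes: the subunit genes Nfkb1, Nfkb2, Rel, Rela and Relb, the inhibitor genes Nfkbia, Nfkbie and Nfkbiz, and the ubiquitin pathway feedback genes Tnfaip3 and Birc3. Members were all probe sets that the platform annotation names with 1 of these symbols, and 19 of 45037 probe sets did so, for 9 of the 10 genes and of 18193 genes named on the array. Nfkb1 was not analysed here.

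The descriptions assign 3 single-colour arrays to Egr1/Egr3 double knockout animals and 3 to wild type animals, numbered 1 to 3 in each group. Egr1 and Egr3 encode zinc finger transcription factors that respond to pre-T cell receptor signalling. The descriptions speak of flow cytometry sorted double negative cells and the sample titles of whole thymus. The sources used here give no alleles, strain, age or sex. Values are the deposited linear intensities, and changes are given as log2(intensity + 16) on the arrays labelled double knockout minus that on the arrays labelled wild type, after each array was centred on its median.

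NF-kappaB dimers are held inactive in the cytoplasm by inhibitors of the IkappaB family. Signals from receptors such as those for TNF and antigen activate a kinase complex that marks these inhibitors for degradation, and the freed dimers enter the nucleus. Among the genes they switch on are inhibitors of the pathway itself, so that transcript levels of Nfkbia and Tnfaip3 are widely used as readouts of its activity. In double negative thymocytes the pre-T cell receptor is known to activate this pathway, which aids their survival.

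The labels and the purity of the cells were checked first. Egr1 had intensities of 1757, 1696 and 1221 on the arrays labelled double knockout, against 508, 509 and 455 on the arrays labelled wild type, so Egr1 was higher under the double knockout label (log2 change 1.60, SE 0.24, limma adjusted p = 0.00312). The brighter Egr3 probe set ranged from 32.9 to 45.8 under the double knockout label and from 30.8 to 92.2 under the wild type label (limma adjusted p = 0.368). It passed as lower without wild type replicate 3 (adjusted p = 0.0278). The dimmer Egr3 probe set read 12.5, 32.1 and 55.4 under the double knockout label, against 34.2, 30.5 and 30.5 under the wild type label. Its log2 change was -0.07 (limma adjusted p = 0.941). The sources used here do not say whether these probe sets lie in the disrupted sequence, so the directions below are those of the labels. Cd4 lay below the brightest bacterial control, which read between 19.0 and 29.9, on the 6 arrays. Both CD8 chains were above it on every array, although the cells are described as double negative: Cd8a read 68.5 to 85.9 on the arrays labelled double knockout, against 82.9 to 197 on the arrays labelled wild type, and Cd8b1 read 65.9 to 137 under the double knockout label, against 70.4 to 119 under the wild type label. All 12 double negative thymocyte markers on the array were above that control. Their summed intensity was 29774 to 31609 on the arrays labelled double knockout, against 43451 to 55280 under the wild type label. By limma 3 of the 12 were lower and 0 higher, against 2.11% lower and 2.91% higher over all probe sets tested. At an unadjusted p under 0.05 limma had 7 of the 12, against 9.86% higher and 8.9% lower over all probe sets. Granulocyte markers set wild type replicate 3 apart: the summed intensity of 12 such genes was 18561 to 27763 on the arrays labelled double knockout, against 11527, 25008 and 392 on wild type replicates 1, 2 and 3. The same array was high in the erythroid marker Alas2, which read 223 to 332 on the arrays labelled double knockout, against 245, 13.1 and 3142 on wild type replicates 1, 2 and 3. Under the double knockout label, Xist read 3910 to 6015 and the Y-linked Eif2s3y read 186 to 265. Wild type replicate 1 had both as well (1439 and 476), whereas Eif2s3y read 13.2 and 0.625 on wild type replicates 2 and 3. The Y-linked Kdm5d and Uty were dim under the double knockout label, at 10.3 to 29.5 and 11.4 to 23.4. They read 144 and 63.7 on wild type replicate 1. On wild type replicates 2 and 3, Kdm5d read 8.81 and 2.52 and Uty read 10.5 and 12.4. Whether the arrays labelled double knockout and wild type replicate 1 each hold RNA of 1 animal was not tested.

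The feedback genes Nfkbia, Tnfaip3 and Birc3 were higher in the arrays labelled double knockout, and no probe set of a subunit gene passed the test. Of 19 member probe sets, 18 passed the filter on dim signals. Of these 18, 6 rose and 0 fell at an adjusted p under 0.05. The 6 belong to 3 genes, and 4 of them read the same gene, Nfkbia. Over all 27022 probe sets tested, 5.03% passed, 2.91% higher and 2.11% lower. At an unadjusted p under 0.05, limma had 8 of the 18 higher and 0 lower, against 9.86% higher and 8.9% lower over all probe sets. Of the 8, Nfkbiz 1457404_at had a wild type mean under the filter and passed it through the double knockout label alone, so it had to differ. Nfkb2 1425902_a_at passed through the wild type label alone, and without both probe sets the count at an unadjusted p under 0.05 was 7 of 16 higher by limma. The groups did not overlap in 11 of the 18, with the double knockout label above in 10 (9 without that Nfkbiz probe set) and below in 1. Over all probe sets tested 24.3% did not overlap, 13.2% with the double knockout label above and 11% with it below. In bulk RNA such as this, more cells of a type and more RNA per cell cannot be told apart.

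**Figure D1:**
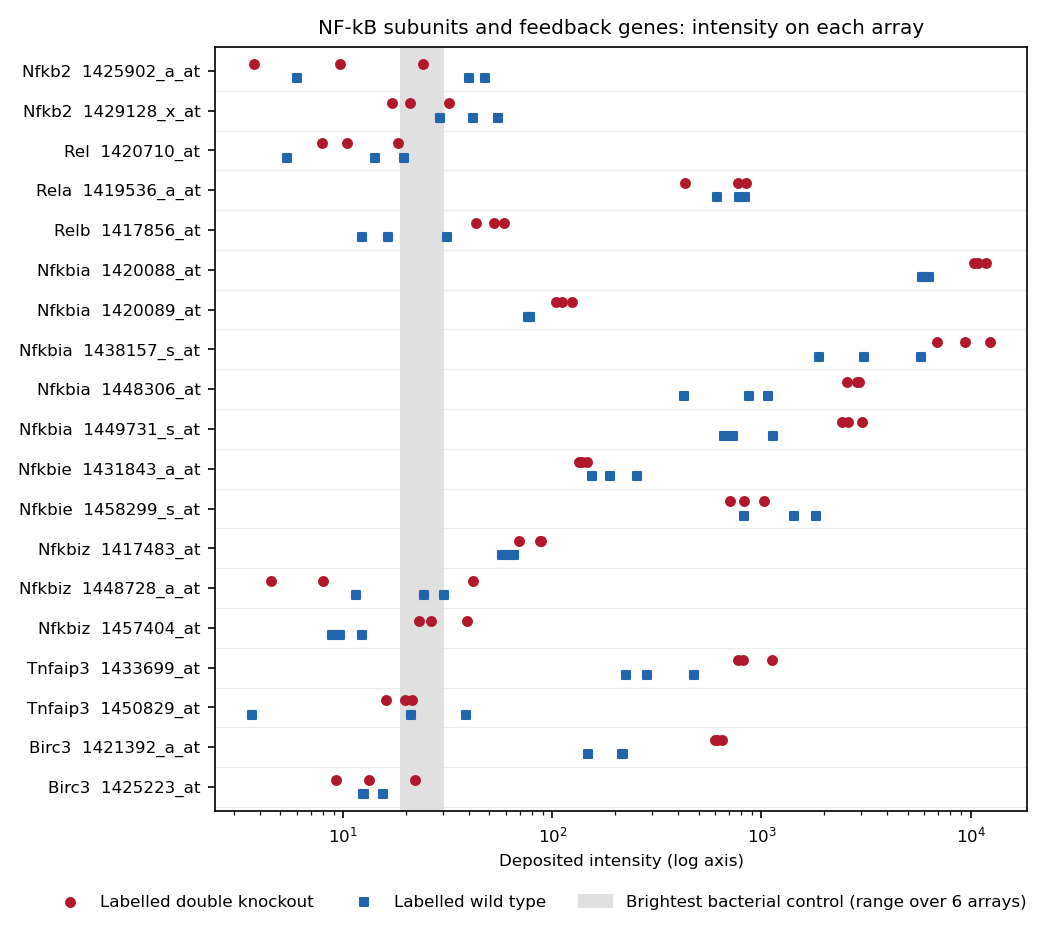
Intensity of each of the 19 member probe sets on each array, on a log axis, with circles for the 3 arrays labelled double knockout above squares for the 3 labelled wild type. The grey band spans the brightest bacterial control over the 6 arrays, 19.0 to 29.9, and both Tnfaip3 and Birc3 have 1 probe set far above it and 1 at its level.

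Nfkbia encodes IkappaB alpha, the inhibitor that is degraded and remade within each round of NF-kappaB activation. Its probe set 1448306_at, the one whose accession is a RefSeq transcript, read 2940, 2849 and 2569 on the arrays labelled double knockout, against 426, 870 and 1069 on the arrays labelled wild type. The groups were far apart, and the log2 change was 1.88 (SE 0.32, limma adjusted p = 0.00618), a ratio of 3.68 on the scale of intensity plus 16. The spread lay mostly on the wild type side, with a coefficient of variation of 6.94% for the double knockout label and 41.8% for wild type.

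The other Nfkbia probe sets differed in the size of the change. Probe set 1449731_s_at read 3017, 2583 and 2427 on the arrays labelled double knockout, against 661, 1142 and 727 on the arrays labelled wild type, a change of 1.66 (SE 0.27, adjusted p = 0.00465 by limma). Probe set 1438157_s_at read 9380, 12394 and 6941 on the arrays labelled double knockout, against 1876, 3085 and 5780 on the arrays labelled wild type, a change of 1.51 (SE 0.35, adjusted p = 0.0311 by limma). The groups kept apart there by a narrow gap, between double knockout replicate 3 and wild type replicate 3. Among the 4 called Nfkbia probe sets, 1420088_at had the lowest coefficient of variation in both groups, with 10905, 11804 and 10422 on the arrays labelled double knockout, against 6345, 5948 and 5826 on the arrays labelled wild type (0.85, SE 0.17, limma adjusted p = 0.0132). Its interval, 0.49 to 1.21, just reached that of 1448306_at, 1.19 to 2.57. The dimmest, 1420089_at, read between 104 and 124 under the double knockout label and between 76.2 and 78.5 on those labelled wild type. It did not pass (0.44, SE 0.22, adjusted p = 0.326), although its groups did not overlap either.

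Tnfaip3 encodes A20, a ubiquitin-editing enzyme that shuts off signalling upstream of the IkappaB kinases. Its bright probe set 1433699_at read 818, 1120 and 773 on the arrays labelled double knockout, against 282, 225 and 477 on the arrays labelled wild type. All 3 arrays labelled double knockout were above all 3 labelled wild type, with a log2 change of 1.45 (SE 0.29, adjusted p = 0.0153 by limma). Its other probe set, 1450829_at, was at or below the brightest bacterial control on 4 of the 6 arrays and had a change of 0.02 (95% interval -0.75 to 0.78), so it gives no check of the first.

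Birc3 encodes cIAP2, a ubiquitin ligase of TNF receptor complexes that also limits cell death. Probe set 1421392_a_at read 614, 602 and 647 on the arrays labelled double knockout, against 217, 215 and 149 on the arrays labelled wild type. This was the smallest adjusted p among the members, with a log2 change of 1.60 (SE 0.25, limma adjusted p = 0.00389) and a ratio of 3.04 on the scale of intensity plus 16. The second probe set, 1425223_at, was at or below the brightest bacterial control on all 6 arrays and had a change of 0.03 (95% interval -0.60 to 0.65).

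Birc3 kept its call with any 1 array left out, with changes between 1.43 and 1.71 and a highest adjusted p of 0.0413. Nfkbia 1448306_at and 1449731_s_at missed the threshold without double knockout replicate 1, both at an adjusted p of 0.05004, and held in the other 5 fits. Nfkbia 1420088_at missed it without double knockout replicate 1 (adjusted p = 0.112) or 2 (0.052). Nfkbia 1438157_s_at missed it without double knockout replicate 1 (0.130) or 2 (0.122) and without wild type replicate 1 (0.0992) or 2 (0.110). Tnfaip3 missed it without double knockout replicate 1 (0.0828) or 2 (0.0749) and without wild type replicate 1 (0.0578) or 2 (0.0741). Without wild type replicate 3, the array low in granulocyte markers, all 6 kept their calls, with changes of 1.43 for Birc3, 1.73 for Tnfaip3 and 0.81 to 2.13 for Nfkbia.

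**Figure D2:**
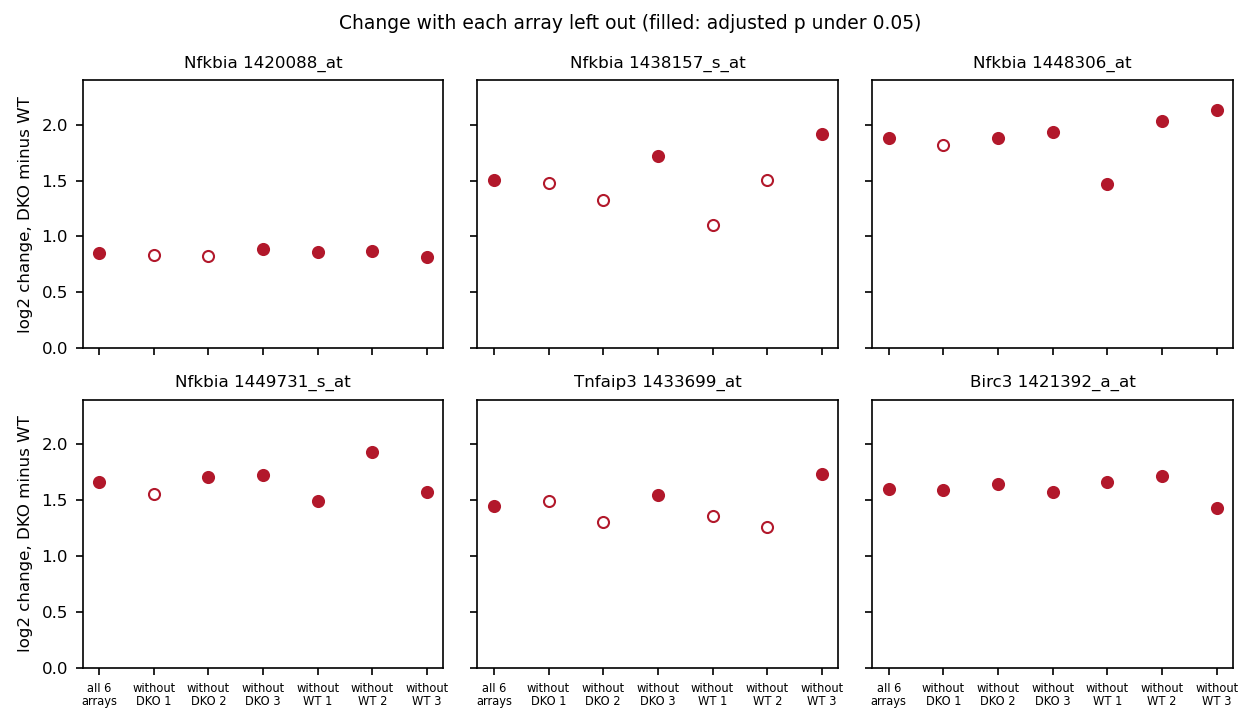
Log2 change of the 6 member probe sets past the threshold, with all 6 arrays and with each array left out in turn (DKO, labelled double knockout; WT, labelled wild type). Filled circles have an adjusted p under 0.05, and Birc3 is filled throughout while the Tnfaip3 circle is open in 4 of the 6 fits with an array left out.

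Some NK cell markers were higher beside these genes. Of 4 NK cell markers tested, 3 rose (Nkg7, Klrd1 and Gzmb), against 2.91% of all probe sets tested. The fourth, Prf1, was dim and overlapped, with 32.9 to 54.7 under the double knockout label and 26.8 to 38.0 under the wild type label. The summed intensity of the list was 2115 to 3777 on the arrays labelled double knockout, against 400 to 623 on the arrays labelled wild type. Nkg7 alone read 1243 to 2423 under the double knockout label, most of that sum. The NK receptor gene Ncr1 stayed at or below the brightest bacterial control on the 6 arrays. Of 11 macrophage and dendritic cell markers 1 rose (Cd14), and of 7 B cell markers 1 rose (Cd79b), both named after their values were seen. At an unadjusted p under 0.05 limma had 3 of the 11 and 2 of the 7. Other members lay lower under the double knockout label without overlap. Ighm read 2437 to 3724 there, against 4255 to 7734 under the wild type label. The dim Itgax and Flt3 read 9.30 to 19.4 and 17.1 to 21.3, against 27.1 to 55.7 and 26.3 to 36.7. Fcgr3 lay higher without overlap (139 to 156, against 7.03 to 124). The sums of these 2 lists were 3807 to 4293 and 5308 to 6058 on the arrays labelled double knockout, against 2338 to 6811 and 6257 to 8749 on the arrays labelled wild type. None of 11 granulocyte markers passed limma's test (2 at an unadjusted p under 0.05). Sums of epithelial and stromal markers were 1092 to 3081 under the double knockout label and 424 to 1974 under the wild type label, with none of 6 markers past limma's test (1 at an unadjusted p under 0.05). The part of NK, granulocyte, macrophage, B cell, erythroid and stromal transcripts in the feedback gene values was not tested.

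The sequence upstream of the 3 feedback genes that rose is shown because these genes are known targets of NF-kappaB, beside that of Nfkb2, a subunit gene that did not pass. Each line gives the 250 bases before the first listed start of the gene in RefSeq (mouse build GRCm38.p6), 5′ to 3′ in the direction of the gene, with matches to the kappaB consensus on either strand in capitals.
Nfkbia, chr12:55492648-55492897, minus strand: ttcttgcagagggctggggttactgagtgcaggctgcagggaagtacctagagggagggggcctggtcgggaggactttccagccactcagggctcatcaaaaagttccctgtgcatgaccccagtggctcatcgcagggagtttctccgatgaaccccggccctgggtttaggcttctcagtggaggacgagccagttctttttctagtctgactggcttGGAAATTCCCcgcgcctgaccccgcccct
Tnfaip3, chr10:19015411-19015660, minus strand: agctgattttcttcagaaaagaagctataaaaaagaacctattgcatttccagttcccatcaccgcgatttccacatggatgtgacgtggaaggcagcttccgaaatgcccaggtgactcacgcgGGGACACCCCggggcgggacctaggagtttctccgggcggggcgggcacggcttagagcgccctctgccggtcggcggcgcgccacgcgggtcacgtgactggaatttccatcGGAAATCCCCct
Birc3, chr9:7873171-7873420, minus strand: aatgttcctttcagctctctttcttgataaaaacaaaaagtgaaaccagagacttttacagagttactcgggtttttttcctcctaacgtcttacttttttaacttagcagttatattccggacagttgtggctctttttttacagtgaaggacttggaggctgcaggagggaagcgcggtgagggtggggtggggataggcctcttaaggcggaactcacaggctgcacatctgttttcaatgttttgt
Nfkb2, chr19:46304487-46304736, plus strand: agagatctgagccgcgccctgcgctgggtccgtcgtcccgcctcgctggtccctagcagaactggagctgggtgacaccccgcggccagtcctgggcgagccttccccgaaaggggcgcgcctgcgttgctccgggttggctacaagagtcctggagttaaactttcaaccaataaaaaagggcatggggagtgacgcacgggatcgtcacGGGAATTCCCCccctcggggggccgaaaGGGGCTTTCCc

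Counting the base before the start as -1, the match of Nfkbia spans -29 to -20 on the opposite strand and is also a match of the narrower form with A in the fourth place and T in the sixth to the eighth. Tnfaip3 has matches at -125 to -116 and at -12 to -3, and Birc3 has none in this window. RefSeq lists a second start for Tnfaip3, whose window holds no match, and 3 starts for Nfkb2. Nfkb2 has overlapping matches from -39 to -29 and another at -11 to -2. Both strands were searched in windows running from 250 bases before the start to 50 after it. The narrower form is a special case of the consensus, so each of its matches is also a match of the consensus.

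Such windows were found for 7 of the 10 genes, 10 windows in all, and 7 windows of 5 genes (Nfkb2, Rel, Nfkbia, Nfkbie and Tnfaip3) held the kappaB consensus. Of all 32851 windows in the RefSeq table, 8.46% held it, and 0.411% held the narrower form, as did 3 member windows of 2 genes, Nfkbia and Nfkb2. Windows 2 and 3 of Nfkb2 overlap and share 1 match of the narrower form, so the 3 windows hold 2 separate sites. The EGR site GCGNGGGCG was in 1 member window, the second of Nfkb2, against 5.55% of all windows. Matches were thus present in genes that rose and in genes that did not pass, and 1 gene that rose, Birc3, had no match in this window.

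The NF-kappaB subunit genes gave no probe set past the threshold, with 4 tested (1 at an unadjusted limma p under 0.05) and 1 below the filter. Rela encodes p65, the activating subunit of the classical dimer, and read 772, 433 and 848 on the arrays labelled double knockout, against 783, 830 and 616 on the arrays labelled wild type. The groups overlapped, and the log2 change of -0.18 had a 95% interval of -0.83 to 0.47 (limma adjusted p = 0.805). Double knockout replicate 2 was the lowest of the 6 arrays, and without it the change was 0.14.

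Relb encodes the activating subunit of the alternative pathway, which pairs with the Nfkb2 product. It read 52.4, 43.2 and 58.5 on the arrays labelled double knockout, against 12.3, 16.4 and 31.2 on the arrays labelled wild type. Although the groups did not overlap, the change of 0.92 (SE 0.28) missed the threshold (limma adjusted p = 0.0839), and 2 of the 3 arrays labelled wild type were at or below the brightest bacterial control. Without wild type replicate 3 it passed, with a change of 1.12 and an adjusted p of 0.0256.

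Nfkb2 encodes p100, the precursor of the p52 subunit and itself an inhibitor of Relb. Probe set 1429128_x_at read 17.1, 20.9 and 31.9 on the arrays labelled double knockout, against 54.9, 41.9 and 29.2 on the arrays labelled wild type (-0.57, 95% interval -1.17 to 0.03, adjusted p = 0.294 by limma). The other, 1425902_a_at, read 24.2, 3.76 and 9.68 on the arrays labelled double knockout, against 6.02, 47.6 and 39.9 on the arrays labelled wild type (-0.66, 95% interval -1.62 to 0.29). Both were dim, and both had overlapping groups. Rel encodes c-Rel, a subunit prominent in lymphocytes. Its single probe set lay at or below the brightest bacterial control on all 6 arrays, between 7.94 and 18.3 under the double knockout label and between 5.38 and 19.5 under the wild type label. It was below the filter, and the fit without filter gave a change of -0.04 (95% interval -0.69 to 0.61).

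**Figure D3:**
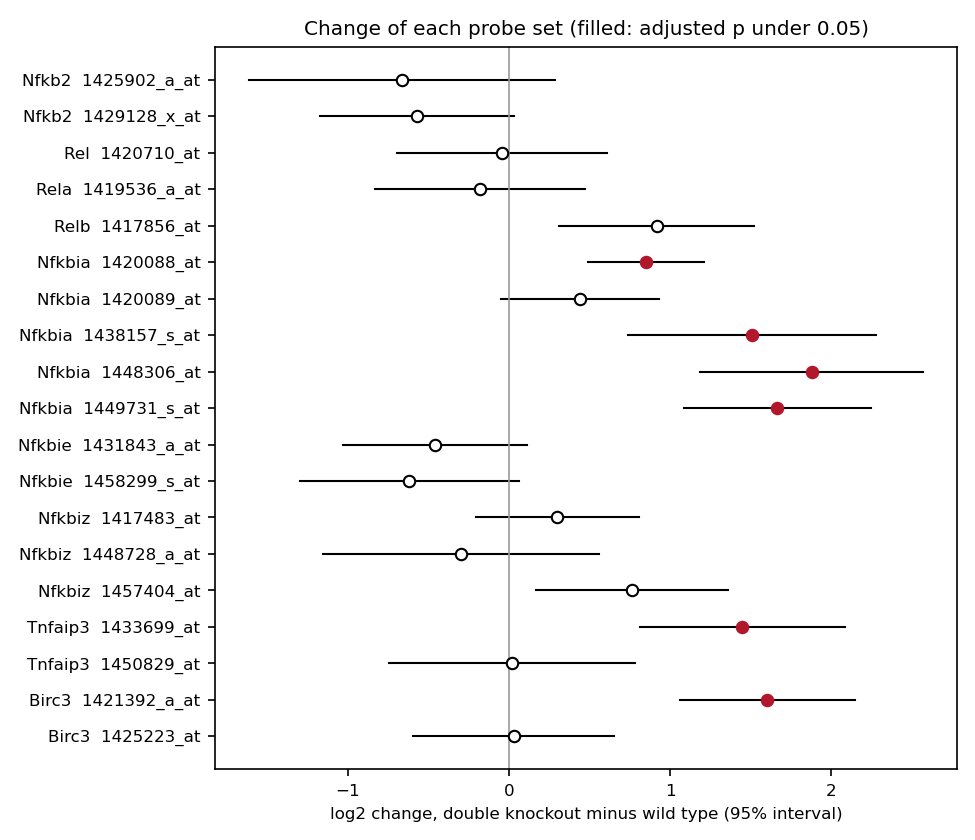
Log2 change, labelled double knockout minus labelled wild type, of each of the 19 member probe sets with its 95% interval from limma. Filled circles have an adjusted p under 0.05: they are 4 probe sets of Nfkbia, 1 of Tnfaip3 and 1 of Birc3, between 0.85 and 1.88. Nfkb2, Rel, Rela, Nfkbie and Nfkbiz 1448728_a_at lie on the other side of 0, each with an interval that includes 0.

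The remaining IkappaB genes did not pass. Nfkbie encodes IkappaB epsilon, a slower inhibitor with a preference for Rela and c-Rel. Its probe set 1458299_s_at read 829, 709 and 1030 on the arrays labelled double knockout, against 1437, 1818 and 823 on the arrays labelled wild type, a log2 change of -0.62 (SE 0.31, limma adjusted p = 0.319). Wild type replicate 3 sat among the double knockout values, and without it the probe set was lower past the threshold (-0.95, adjusted p = 0.0299). Probe set 1431843_a_at read 146, 139 and 134 on the arrays labelled double knockout, against 188, 255 and 155 on the arrays labelled wild type. These groups did not overlap, with a change of -0.46 (95% interval -1.03 to 0.11) that missed the threshold. The signs of Nfkbie and Nfkbia were opposite on every probe set of the pair with all 6 arrays.

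Nfkbiz encodes IkappaB zeta, a nuclear protein that works as a coactivator for a subset of NF-kappaB targets. Probe set 1417483_at read 88.3, 87.1 and 69.0 on the arrays labelled double knockout, against 57.2, 65.9 and 62.7 on the arrays labelled wild type. Its change of 0.30 did not pass (95% interval -0.21 to 0.81). Probe set 1457404_at read 23.0, 39.1 and 26.2 on the arrays labelled double knockout, against 8.82, 12.2 and 9.62 on the arrays labelled wild type, where all 3 were at or below the brightest bacterial control (0.76, SE 0.27, limma adjusted p = 0.147). The third, 1448728_a_at, scattered between 4.50 and 42.0 under the double knockout label and between 11.5 and 30.2 on those labelled wild type.

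The wider pathway was described with 6 lists of other genes, using for each gene its probe set of highest mean. Of 100 genes listed, 91 were named on the array and 82 tested, of which 9 rose, 2 fell and 71 did not pass. Over all 13187 genes tested, 6.98% passed, 4.14% higher and 2.84% lower. At an unadjusted p under 0.05, limma had 26 of the 82 higher and 2 lower, both in the target list, against 11.1% higher and 9.79% lower over all genes. Of the 82 genes, 5 (Tnf, Lta, Cd40lg, Map3k8 and Cxcl2) had a wild type mean under the filter and passed it through the double knockout label alone. Without them 8 of 77 rose and 2 fell, and at an unadjusted p under 0.05 limma had 23 higher and 2 lower. On this scale 3 of 8 member genes rose (Nfkbia, Tnfaip3 and Birc3). The median log2 change was 0.80 for the ligands, 0.58 for the receptors, 0.40 for the target genes, 0.30 for adaptors and ubiquitin ligases, 0.17 for other inhibitors and -0.02 for kinases, beside -0.01 for all genes tested. The medians of the ligands, kinases and target genes include the 5 genes that passed the filter through the double knockout label alone, 3 of them ligands.

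Of 8 ligand genes tested, 3 rose and 0 fell, against 4.14% higher and 2.84% lower over all genes tested. Ltb and Tnfsf14 among them had the largest changes of the 82 genes. Of the 8, 3 passed the filter through the double knockout label alone (Tnf, Lta and Cd40lg), and without them 2 of 5 rose. Ltb, the lymphotoxin beta chain that engages the alternative pathway, read 4843, 4785 and 3569 on the arrays labelled double knockout, against 518, 1104 and 1508 on the arrays labelled wild type (2.16, SE 0.35, limma adjusted p = 0.00469). Tnfsf14, the cytokine LIGHT, read 212, 364 and 184 on the arrays labelled double knockout, against 32.5, 76.3 and 38.2 on the arrays labelled wild type (2.04, SE 0.33, adjusted p = 0.00467 by limma). A second, dim Tnfsf14 probe set had a change of 0.08. Both calls held with any 1 array left out. Tnf read 34.0, 33.3 and 39.7 on the arrays labelled double knockout, against 8.03, 10.2 and 5.15 on the arrays labelled wild type, all 3 of them at or below the brightest bacterial control (1.10, SE 0.26, limma adjusted p = 0.0308). The size of this change is not well measured, since it is set against values at the level of that control. The Tnf call held without wild type replicate 3 and was lost without any 1 of the other arrays (adjusted p 0.0562 to 0.120).

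Among the receptors, 1 of 11 rose and 0 fell. Tnfrsf18, the costimulatory receptor GITR, read 2455, 2890 and 1819 on the arrays labelled double knockout, against 357, 472 and 1041 on the arrays labelled wild type (2.01, SE 0.36, limma adjusted p = 0.00758), and its call held with any 1 array left out. In the signalling layer between receptor and dimer, 1 of 14 adaptor and ubiquitin ligase genes, 1 of 10 kinase genes and 1 of 14 other inhibitor genes rose, and 0 fell. Over all genes tested 4.14% were higher and 2.84% lower, so 1 gene in a list as short as these or the receptors says little about the list. Traf5, a TNF receptor adaptor, read between 137 and 175 under the double knockout label and between 50.9 and 79.8 on those labelled wild type (1.12, SE 0.25, adjusted p = 0.0218 by limma), while its dimmer probe set gave 0.31 and did not pass. Ikbke, a kinase related to the IkappaB kinases, read between 249 and 355 under the double knockout label and between 147 and 159 on those labelled wild type (0.93, SE 0.24, limma adjusted p = 0.0413). Cyld, a deubiquitinase that restrains the pathway, read between 361 and 439 under the double knockout label and between 198 and 219 on those labelled wild type (0.86, SE 0.23, limma adjusted p = 0.0469). Of its other probe sets 1 passed (1.00) and 2 did not (0.42 and 0.01).

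These 3 calls were close to the threshold. Traf5 missed it without any 1 of the arrays labelled double knockout or wild type replicate 1 (adjusted p 0.0693 to 0.0897). Ikbke missed it without double knockout replicates 1 or 3 or wild type replicates 1 or 2 (0.0881 to 0.208), and Cyld missed it without any 1 array other than wild type replicate 3 (0.0841 to 0.250).

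Of 25 genes tested that NF-kappaB is known to induce, 2 rose, 2 fell and 21 did not pass. Over all genes tested 4.14% were higher and 2.84% lower. The change was positive in 19 of the 25, beside a median change of -0.01 over all genes tested. Without Cxcl2, which passed the filter through the double knockout label alone, it was positive in 18 of 24. At an unadjusted p under 0.05 limma had 7 higher and 2 lower, against 11.1% and 9.79% over all genes. Gadd45b, a stress-induced survival factor, read 331, 225 and 260 on the arrays labelled double knockout, against 57.8, 121 and 83.5 on the arrays labelled wild type (1.49, SE 0.30, limma adjusted p = 0.0135). Of its other probe sets 1 rose (2.03) and 1 did not pass (0.49). Cd69, an activation marker that retains thymocytes, read 230, 290 and 346 on the arrays labelled double knockout, against 128, 134 and 70.2 on the arrays labelled wild type (1.27, SE 0.28, adjusted p = 0.0232 by limma). The Gadd45b call was lost without double knockout replicate 1 (0.0873) or wild type replicate 1 (0.0505). That of Cd69 was lost without any 1 array labelled double knockout or wild type replicate 1 (0.0502 to 0.0930).

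The members of the target list that fell were Myc, the growth regulator, and Il2ra, the CD25 chain of the interleukin 2 receptor. Both are also controlled by other pathways in thymocytes, Notch among them. The part of other pathways in the values of the target genes that fell or rose was not tested. Il2ra is also 1 of the 12 double negative thymocyte markers given above, whose summed intensity was lower under the double knockout label. Myc read 278, 230 and 299 on the arrays labelled double knockout, against 1100, 1121 and 808 on the arrays labelled wild type (-1.86, SE 0.25, limma adjusted p = 0.00146). Il2ra read 389, 325 and 357 on the arrays labelled double knockout, against 867, 815 and 807 on the arrays labelled wild type (-1.20, SE 0.22, adjusted p = 0.00937 by limma), and its other probe set fell too (-1.06). The Myc call held with any 1 array left out, and that of Il2ra was lost without double knockout replicate 1 (0.0552).

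**Figure D4:**
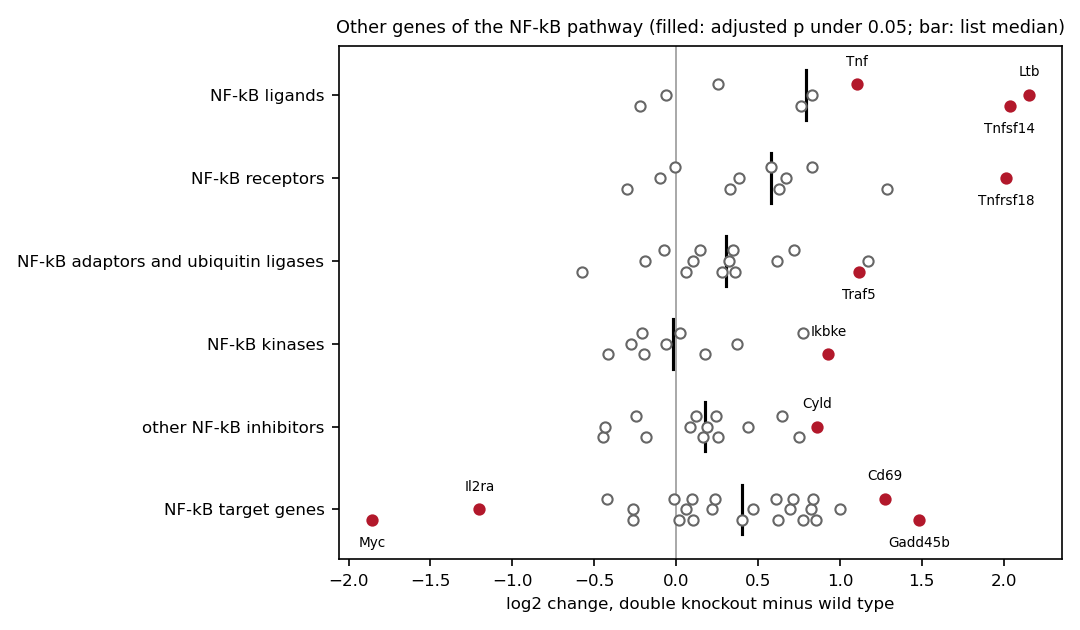
Log2 change, labelled double knockout minus labelled wild type, of the 82 tested genes of 6 pathway lists, 1 circle for each gene and a bar at the median of each list. Circles and bars include the 5 genes that passed the filter through the double knockout label alone. Filled, named circles have an adjusted p under 0.05: Ltb, Tnfsf14 and Tnfrsf18 lie beyond 2, and Myc and Il2ra are the filled circles below 0.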

How the data were processed

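The authors deposited 1 linear intensity for each probe set and array. The mean of the middle 96% of values is 150.0 on each array, so the deposited intensity values were already scaled. The sources used here name neither the scanner software nor the probe set summary. Groups and replicate numbers come from the sample titles. After 64 control probe sets were left out, 34945 of 45037 probe sets had 1 gene symbol, updated through the RefSeq gene table of GRCm38.p6. An offset of 16 was added, log2 taken and each array centred on its median. Probe sets under the 40th percentile of mean log2 value (4.87) were left out. Rel, below it, comes from the fit without filter. The test was limma 3.58.1 under R 4.3.3 (lmFit, then eBayes with an intensity trend) with Benjamini-Hochberg adjustment over all probe sets, or over all genes for the pathway lists, at 0.05. SE and 95% intervals are moderated. The precision of every value is limited by the number of arrays, 3 for each label.

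The members, lists and tests were chosen with earlier results of these data known. Named genes are all member probe sets, Egr1, Egr3 and, in each pathway list, up to 4 genes past the threshold. Marker lists are given by counts and summed intensity. Of the coreceptor and erythroid markers, 2 and 1 were tested, with 0 past limma's test, also at an unadjusted p under 0.05. On simulated arrays of 27022 probe sets, the test recovered 65% of 200 changes of 2 on the log2 scale, with 5 false calls, and 0% of changes of 1. Only 200 probe sets were changed there, whereas 1358 passed in the data, so the adjustment was stricter in the simulation. These shares therefore do not carry over to the data, where changes under 1 also passed, such as 0.85 for Nfkbia 1420088_at. The alternatives were no centring, quantile normalization, an offset of 1 or 64, no filter or one at the 60th percentile, eBayes with no trend, array weights, a replicate block, leaving out each array, and representing a gene by its most variable probe set or by the mean of its probe sets.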

Additional observations from a re-analysis of the deposited data

How the results depend on the processing

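With each array left out in turn, 1 to 8 member probe sets, 1 to 5 member genes and 4 to 15 pathway genes passed, against 6, 3 and 11 with all arrays. The highest member counts, without wild type replicate 3, held 7 probe sets and 4 genes higher and 1 of each lower. Over the whole array, 376 to 2744 probe sets and 279 to 1903 genes passed, against 1358 and 920. Array quality weights gave 8 member probe sets (7 higher, 1 lower), 6 member genes (4 higher, 2 lower), 23 pathway genes (19 higher, 4 lower), 3417 probe sets and 2909 genes. Under these weights the subunit gene Relb passed as higher (1.02, limma adjusted p = 0.0134). Nfkbie 1458299_s_at passed as lower (-0.82, limma adjusted p = 0.042). The replicate block gave 3 member probe sets, 1 member gene, 4 pathway genes, 573 probe sets and 369 genes. The animals differ between the labels, and the titles do not say whether same-numbered arrays were handled together. Deviations of same-numbered arrays correlated at -0.05, -0.13 and -0.29. These deviations sum to 0 over the 3 arrays of a label, so their correlations cannot decide whether the numbers pair the samples. Under the block Nfkbia 1448306_at, Nfkbia 1449731_s_at and Birc3 kept their calls. Nfkbia 1420088_at and 1438157_s_at missed the threshold with no filter (adjusted p = 0.0567 and 0.0664) and with no intensity trend (0.0626 and 0.056). Representing a gene by the mean of its probe sets gave 2 member genes and 12 pathway genes, and Traf5 missed the threshold (0.71, limma adjusted p = 0.0591). By its most variable probe set, 3 member genes and 10 pathway genes passed, and Ikbke missed it (limma adjusted p = 0.063).

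Of 90 values of the 6 called member probe sets under the alternatives, 71 stayed past the threshold, 19 missed it and 0 changed sign. Sign changes occurred in probe sets that did not pass. With an array left out, Rela ranged from -0.36 to 0.14, Tnfaip3 1450829_at from -0.35 to 0.35 (with -0.02 and -0.01 without double knockout replicates 1 and 2), Birc3 1425223_at from -0.0077 to 0.16 and Egr3 1421486_at from -0.38 to 0.26. An offset of 64 gave -0.023 for Tnfaip3 1450829_at and array weights gave -0.0046 for Birc3 1425223_at. No detection calls were used, so dim probe sets are judged against the bacterial controls only.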
